A study of Homo sapiens with 12 samples.

Results

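The AP-1, EGR, IER and DUSP genes and TOB1 were described in DU145, a human prostate cancer cell line, under RSL3 treatment and under overexpression of ATOH8. Members were the protein-coding genes with the symbols FOS, FOSB, FOSL1, FOSL2, JUN, JUNB and JUND, those whose symbol is EGR, IER or DUSP followed by a digit, and TOB1. RefSeq names 42 such genes, and 10 of them were among the 2986 genes and loci of the 2 deposited tables, 4 in the RSL3 table and 6 in the ATOH8 table, with 0 in both. The other 32 (4 of the FOS and JUN genes, all 4 EGR genes, 3 IER genes and 21 DUSP genes) were in neither table. Both tables hold only genes that the authors had listed as changed, so a gene outside them could not be assessed, and being in a table is itself a selection for a difference.

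The study sequenced RNA of 12 libraries in 4 groups of 3. The RSL3 group was wild-type DU145 exposed for 24 h to RSL3, which inactivates GPX4 and so starts ferroptosis, a death driven by lipid peroxidation, and its control was wild-type DU145 given DMSO. The oeATOH8 group was DU145 overexpressing ATOH8, a bHLH (helix-loop-helix) regulator of transcription, and its control, oeCTRL, carried the control of the overexpression. The promoter of the construct, its delivery and whether the cells were a clone or a pool are not given in the sources used here, nor whether replicates were separate cultures, so p-values measure the spread between these libraries, which may be technical. The 2 comparisons share no libraries. In bulk RNA, fewer cells with a transcript and less transcript per cell cannot be told apart.

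Immediate early genes are switched on by growth factor and stress signals without new protein synthesis, largely through ERK, JNK and p38 MAP kinases acting on factors bound at serum response and cAMP response elements. FOS and JUN proteins pair through leucine zippers to form AP-1. FOS and FOSB are short-lived early members, while FOSL1, which encodes FRA-1, follows and is held up by sustained ERK signalling. DUSP genes encode dual-specificity phosphatases, many of which remove phosphate from MAP kinases and are themselves induced by the kinases they switch off. TOB1 belongs to the BTG and TOB family of antiproliferative proteins, which recruit the CCR4-NOT deadenylase to mRNA.

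Listed reads per library ranged from 2523743 to 3096832 in the RSL3 table and from 1508188 to 2226518 in the ATOH8 table, and total depth is not known from these files. Levels are given as normalised counts in the RSL3 table (reads over the authors' size factor of the library) and as scaled counts in the ATOH8 table (reads over a factor computed from the listed genes). ATOH8 had 76508, 72569 and 76043 reads in oeATOH8 and 13, 10 and 4 in oeCTRL, as the labels have it. Of the epithelial markers, KRT8 and CDH1 were in the ATOH8 table, with summed scaled counts of 5980.5 to 6704 in oeATOH8 and 17132 to 17480 in oeCTRL. Of the erythroid markers, HBA1, HBA2 and HBB were in it (3 of 9), with sums of 3224 to 55109 in oeATOH8 and 4.11 to 12.6 in oeCTRL. HBB had 24191, 1411 and 5593 reads in the oeATOH8 libraries and 0 in each oeCTRL library, so oeATOH8 replicate 1 stands apart in globin reads. ALAS2 was not among the listed genes. Of 4 fibroblast markers COL1A2 was listed, at 73.9 to 111 scaled counts in oeATOH8 and 0 to 5.14 in oeCTRL. The part of these markers in the members' differences was not tested. In the RSL3 table, CDH1 and EPCAM summed to 99.9 to 308 normalised counts in RSL3 and 701 to 908 in DMSO. CD68 ranged from 1498 to 4290.3 in RSL3 and from 787 to 1607 in DMSO, and its part was not tested either. Replicates 2 and 3 of that table were nearly alike, with a chi-square over its degrees of freedom of 1.80 in RSL3 and 1.64 in DMSO, where counting error alone gives about 1. Pairs with replicate 1 stood at 59.1 to 101, so this comparison may hold fewer than 3 independent samples a group.

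ATOH8 overexpression was the comparison that held the AP-1 genes. FOS, FOSB and TOB1 fell, and FOSL1, DUSP5 and DUSP8 rose, with no overlap between the groups for any of the 6. FOS fell 11.0-fold, FOSB 6.99-fold and TOB1 3.60-fold, while FOSL1 rose 2.72-fold, DUSP5 2.29-fold and DUSP8 2.26-fold. All 6 members passed edgeR's quasi-likelihood test at an adjusted p of 0.05 over the listed genes, where 100% of the 1424 listed genes passed (41.4% higher and 58.6% lower). With listed genes scaled by the median of ratios, 589 higher and 418 lower listed genes passed, so the balance of directions rests on the scaling, while all 6 members still passed. The groups of 99.6% of listed genes did not overlap, so these counts are no more than the background. With all annotated genes and assembled loci (75204) counted as tests, all 6 members passed (3 higher and 3 lower), against 82% of listed genes (35.6% higher and 46.3% lower).

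The promoters of FOS and FOSB, which fell together, and of DUSP8 and TOB1 are shown because these are the members of the ATOH8 comparison that the RefSeq promoter table (GRCh38.p14) held. FOSL1 and DUSP5 had no entry. Each sequence runs from 250 bases before to 50 bases after the start, 5′ to 3′ on the gene's strand. Capitals mark TGACG, the core of the cAMP response element, on either strand (within TGACGTCA where the site is whole), TATAAA, and the E-box CANNTG, the kind of site that helix-loop-helix factors bind.
FOS, chr14:75278578-75278877, plus strand: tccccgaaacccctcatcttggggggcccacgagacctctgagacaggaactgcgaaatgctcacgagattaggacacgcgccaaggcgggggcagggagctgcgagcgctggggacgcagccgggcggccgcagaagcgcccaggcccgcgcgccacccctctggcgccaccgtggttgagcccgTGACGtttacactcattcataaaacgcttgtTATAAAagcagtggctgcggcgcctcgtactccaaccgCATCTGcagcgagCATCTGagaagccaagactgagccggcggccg
FOSB, chr19:45467746-45468045, plus strand: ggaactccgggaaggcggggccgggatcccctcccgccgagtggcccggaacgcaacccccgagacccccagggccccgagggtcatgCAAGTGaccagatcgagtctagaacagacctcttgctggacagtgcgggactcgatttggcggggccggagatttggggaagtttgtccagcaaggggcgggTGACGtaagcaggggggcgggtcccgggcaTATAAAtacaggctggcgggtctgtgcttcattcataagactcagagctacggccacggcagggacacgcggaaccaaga
DUSP8, chr11:1572222-1572521, minus strand: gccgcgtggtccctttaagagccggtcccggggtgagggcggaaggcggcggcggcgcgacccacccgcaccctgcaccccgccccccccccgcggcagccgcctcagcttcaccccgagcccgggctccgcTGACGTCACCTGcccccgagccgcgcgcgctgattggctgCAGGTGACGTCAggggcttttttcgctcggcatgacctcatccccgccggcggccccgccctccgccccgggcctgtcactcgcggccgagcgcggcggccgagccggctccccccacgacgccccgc
TOB1, chr17:50867929-50868228, minus strand: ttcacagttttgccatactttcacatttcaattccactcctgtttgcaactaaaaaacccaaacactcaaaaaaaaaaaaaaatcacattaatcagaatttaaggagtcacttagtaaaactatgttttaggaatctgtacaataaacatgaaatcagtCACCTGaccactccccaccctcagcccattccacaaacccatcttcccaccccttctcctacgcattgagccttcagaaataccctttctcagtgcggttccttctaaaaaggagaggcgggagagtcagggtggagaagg

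FOS and FOSB hold both motifs in the same order near the start. TGACG lies at -64 to -60 in FOS and at -60 to -56 in FOSB, and TATAAA lies at -33 to -28 in FOS and at -30 to -25 in FOSB. Both motifs, on either strand, were in 2.01% of the 27305 RefSeq promoters of this length, while TGACG, with or without the other, was in 25% and TATAAA in 12%. Of the 8 member promoters, 3 hold TGACG and 2 hold TATAAA. TOB1, which also fell, holds neither, and DUSP8, which rose, holds TGACG. DUSP8 holds the whole element TGACGTCA at -118 to -111 and again at -74 to -67, each overlapping an E-box by 2 bases, and 0.0659% of promoters hold it at least 2 times. The pair of TGACG with TATAAA and the repeated TGACGTCA were not among the motifs planned, which were single. Their shares therefore describe these promoters and test nothing. E-boxes were in 68.9% of all promoters and in 6 of the 8 member promoters in the RefSeq table. The AP-1 motif (TGACTCA or TGAGTCA, both strands, in 4.92% of promoters), the EGR1 motif GCGTGGGCG (0.784%) and the CArG box (1.29%) had no match in the 8 windows. A match is a run of letters in the window, and no match says nothing of sites outside it.

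FOS lies at 75278774 to 75282230 on chromosome 14 (ENSG00000170345, GRCh38). It had 212, 206 and 228 reads in the oeATOH8 libraries, against 2358, 2164 and 2404 in the oeCTRL libraries. Every oeATOH8 library lay about an order of magnitude below every oeCTRL library. Scaled counts averaged 213 ± 7.62 in oeATOH8 and 2333 ± 123 in oeCTRL (SD, n = 3 each), a log2 fold change of -3.45 (SE 0.08, edgeR adjusted p = 3.60e-11). FOS ranked 13 by size of change among the 835 listed genes that were lower.

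FOSB (ENSG00000125740, chromosome 19, 45467995 to 45475179), a FOS relative with the same pairing to JUN proteins, had 96, 90 and 133 reads in oeATOH8, against 661, 698 and 813 in oeCTRL. Its groups were also well apart, with oeATOH8 replicate 3 the highest of the low group. The mean was 105 ± 20.9 scaled counts in oeATOH8 and 733 ± 98.0 in oeCTRL (SD, n = 3 each), a log2 fold change of -2.80 (SE 0.17, edgeR adjusted p = 3.50e-08). It ranked 35 of 835.

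FOSL1 (ENSG00000175592, chromosome 11, 65892049 to 65900573) moved the other way. It had 16662, 14934 and 15144 reads in oeATOH8, against 5819, 5607 and 5423 in oeCTRL. The lowest oeATOH8 library was above the highest oeCTRL library by more than the whole oeCTRL level. Scaled counts were 15409 ± 759 in oeATOH8 and 5675 ± 117 in oeCTRL (SD, n = 3 each), a log2 fold change of 1.44 (SE 0.05, edgeR adjusted p = 7.27e-10), rank 185 of the 589 listed genes that were higher.

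**Figure D1:**
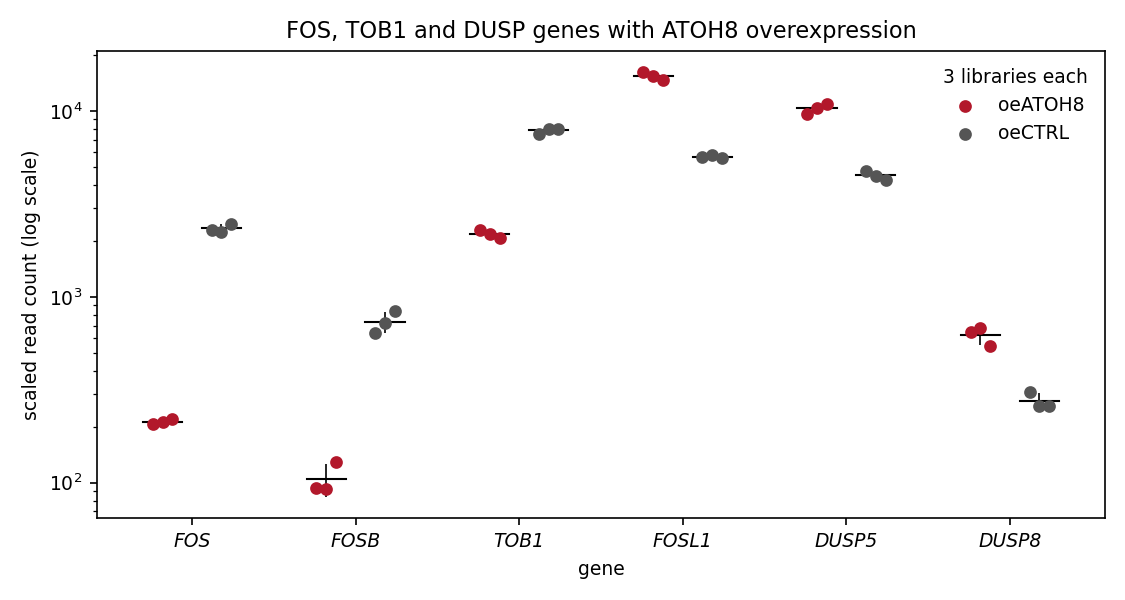
Scaled read counts (log axis) of the 6 members in the ATOH8 table, by gene, with oeATOH8 left and oeCTRL right. Points are libraries, horizontal bars the mean and vertical bars the SD (n = 3). FOS, FOSB and TOB1 lie lower in oeATOH8 and FOSL1, DUSP5 and DUSP8 higher, with no overlap.

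A ratio of 2 genes within a library needs no scale. It shows that the genes changed relative to each other, not the direction of either. Genes listed for opposite changes are largely selected to differ in it. FOSL1 reads per FOS read were 78.6, 72.5 and 66.4 in the oeATOH8 libraries, against 2.47, 2.59 and 2.26 in the oeCTRL libraries, a 29.7-fold difference. An exact two-sided permutation test on log2 ratios gave p = 0.1, the smallest that 3 against 3 libraries allow. FOSL1 reads per FOSB read were 151 ± 32.5 in oeATOH8 and 7.84 ± 1.08 in oeCTRL (SD, n = 3 each). FOSB reads per FOS read differed far less, at 0.491 ± 0.0803 in oeATOH8 and 0.314 ± 0.0299 in oeCTRL (SD, n = 3 each; exact permutation p = 0.1).

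Per exon length (the union of GENCODE exons, which are 1887 bases for FOSL1, 3238 for FOS and 5553 for FOSB), FOSL1 was the most abundant of the 3 in both groups. Its share of their summed reads per length was 99.1%, 99.0% and 98.8% in oeATOH8, against 78.4%, 78.9% and 76.4% in oeCTRL. The share of FOS was 0.735% to 0.867% in oeATOH8 and 17.7% to 19.7% in oeCTRL, and that of FOSB 0.194% to 0.295% in oeATOH8 and 3.03% to 3.89% in oeCTRL. The summed scaled counts of the 3 genes were 15044 to 16505 in oeATOH8 and 8570.4 to 8885 in oeCTRL, so at this scaling the 3 genes were higher in sum, and more nearly all FOSL1. FOSL2 and the JUN partners were not among the listed genes and could not be added.

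**Figure D2:**
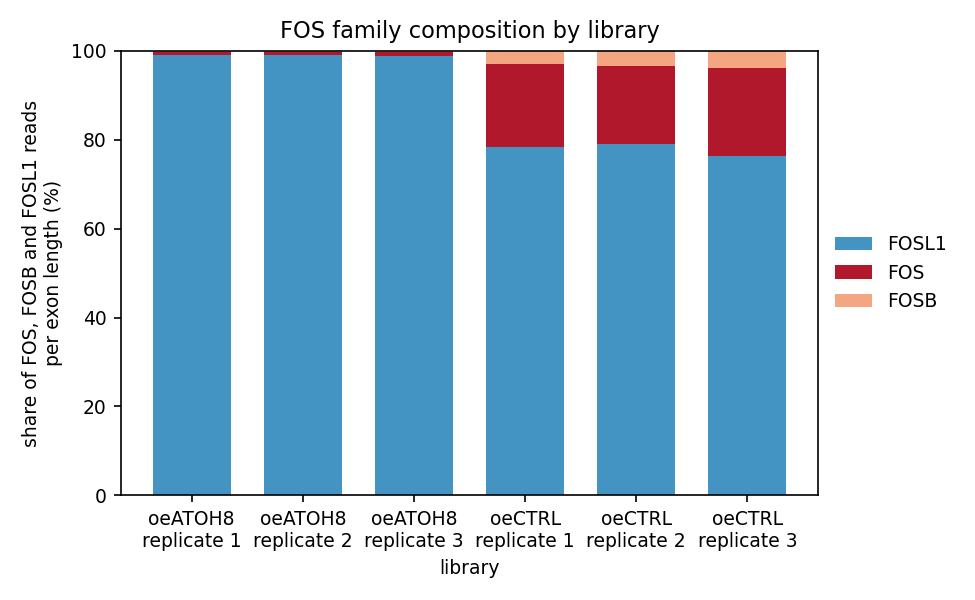
Share (%) of FOSL1, FOS and FOSB in their summed reads per exon length, for each of the 3 oeATOH8 libraries (left) and 3 oeCTRL libraries (right). FOSL1 takes at least 98.8% in oeATOH8 and at most 78.9% in oeCTRL.

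The DUSP genes in the ATOH8 table both rose. DUSP5, a nuclear phosphatase that acts on ERK (ENSG00000138166, chromosome 10, 110497838 to 110511544), had 9902, 10151 and 11226 reads in oeATOH8, against 4928, 4290 and 4148 in oeCTRL. Its log2 fold change was 1.20 (SE 0.06, edgeR adjusted p = 1.38e-08), from 10314 ± 637 scaled counts in oeATOH8 and 4495 ± 261 in oeCTRL (SD, n = 3 each). DUSP8, a phosphatase of JNK and p38 (ENSG00000184545, chromosome 11, 1554044 to 1571920), had 662, 659 and 558 reads in oeATOH8, against 316, 251 and 250 in oeCTRL. Its log2 fold change was 1.18 (SE 0.13, edgeR adjusted p = 6.15e-06), from 621 ± 70.5 scaled counts in oeATOH8 and 274 ± 27.7 in oeCTRL (SD, n = 3 each). By size of change they ranked 332 and 354 of 589 increases, in the smaller part of the table's range. The ratio of DUSP5 to DUSP8 reads was 16.8 ± 2.86 in oeATOH8 and 16.4 ± 0.762 in oeCTRL (SD, n = 3 each), a log2 difference of 0.02 (exact permutation p = 1), within the spread of libraries. Per kilobase of exon, the level of DUSP5 was 3944 scaled counts in oeATOH8 and 1719 in oeCTRL, and that of DUSP8 was 134 in oeATOH8 and 59.5 in oeCTRL. An uncharacterised RefSeq gene overlaps the DUSP8 span, and reads of the pair were not separated here.

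TOB1 (ENSG00000141232, chromosome 17, 50862223 to 50867978) had 2358, 2113 and 2138 reads in oeATOH8, against 7766, 7715 and 7809 in oeCTRL. The libraries of each group lay within 1.11 times of each other in scaled counts. The means were 2179 ± 110 scaled counts in oeATOH8 and 7849 ± 277 in oeCTRL (SD, n = 3 each), a log2 fold change of -1.85 (SE 0.06, edgeR adjusted p = 6.65e-10), rank 208 of 835 decreases. The long noncoding gene TOB1-AS1 overlaps its start on the opposite strand, and strandedness is not given in the sources used here, so antisense reads cannot be told apart from TOB1 reads. None of the other BTG and TOB genes or the deadenylase partners (0 of 8) was in either table.

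Among the oeATOH8 libraries, HBB varied 16.2-fold in scaled counts. FOS varied 1.07-fold, FOSB 1.40-fold, FOSL1 1.10-fold, DUSP5 1.13-fold, DUSP8 1.25-fold and TOB1 1.11-fold. HBB had reads in every oeATOH8 library and 0 in each oeCTRL library. Globin reads thus go with the group, and leaving out 1 library cannot separate the 2. Their part in the members' differences was not tested. Without oeATOH8 replicate 1, the log2 fold changes were -3.39 for FOS, -2.68 for FOSB, -1.85 for TOB1, 1.44 for FOSL1, 1.29 for DUSP5 and 1.19 for DUSP8. All 6 passed, where 1422 of the 1424 listed genes passed. The absolute folds rest on how the 2 groups are scaled, since no unchanged gene is in the table. Scaling by totals of listed genes gave log2 fold changes of -3.91 for FOS, -3.26 for FOSB, -2.31 for TOB1, 0.98 for FOSL1, 0.74 for DUSP5 and 0.72 for DUSP8. The median of ratios gave -2.54 for FOS, -1.89 for FOSB, -0.94 for TOB1, 2.35 for FOSL1, 2.11 for DUSP5 and 2.08 for DUSP8. TMM values lay between these, and no member changed direction or lost its call under the 3 scalings. Listed genes passing were 1405 with totals, 1007 with the median of ratios and 1422 with TMM.

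The genes whose profile over the 6 libraries was most like that of FOS, by root mean square distance of centred log2(scaled count + 1), were, of the 1286 genes whose mean reached 50, AOC3 (distance 0.238), MX1 (0.26) and FGFBP1 (0.284). AOC3 encodes a copper amine oxidase, MX1 an interferon-induced antiviral GTPase and FGFBP1 a carrier of fibroblast growth factors. They fell 8.48-fold, 8.29-fold and 10.8-fold. For TOB1 they were HSPA1B (0.0419), which shares near-identical sequence with HSPA1A and is uncertain for that reason, an assembled locus with no name (0.0545) and RIMKLA (0.0551), which fell 3.70-fold, 3.48-fold and 3.39-fold.

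Other immediate early genes were also divided. Of 33 such genes, 16 were in the ATOH8 table, 11 rose and 5 fell, with a median log2 fold change of 1.33, against -1.10 over all 1424 listed genes. All 16 also passed when all annotated genes and loci were counted as tests. NR4A2, a nuclear receptor that is an early response gene like FOS, fell 6.43-fold, with 314 ± 26.1 scaled counts in oeATOH8 and 2020.3 ± 28.6 in oeCTRL (SD, n = 3 each). HES1, a Notch-responsive repressor, fell 7.52-fold. Scaling by the median of ratios left 4 of the 5 decreases, with directions kept; the one lost was NR4A3, named after its values were seen. CCN1, a secreted matricellular protein, rose 2.78-fold (36683 ± 1238 scaled counts in oeATOH8 and 13188 ± 80.7 in oeCTRL, SD, n = 3 each). GADD45B, a stress gene whose product binds MAP kinase kinase kinases, rose 4.87-fold, with 4978 ± 219 scaled counts in oeATOH8 and 1023 ± 56.1 in oeCTRL (SD, n = 3 each).

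The listed ERK feedback and output genes were all on the higher side. Of 20 genes, 7 were in the table, 7 rose and 0 fell, with a median log2 fold change of 1.75. Over all 1424 listed genes, 41.4% were higher and the median was -1.10. The genes outside the table could not be assessed, and the list was chosen with earlier results of these data known. The list shares MYC and MAFF with the immediate early list. EPHA2, an ephrin receptor induced by ERK, rose 3.91-fold (30938 ± 726 scaled counts in oeATOH8 and 7908 ± 312 in oeCTRL, SD, n = 3 each). SPRY4, a feedback inhibitor of receptor tyrosine kinase signalling, rose 3.36-fold, MYC 2.70-fold and the cytokine gene LIF 2.25-fold. Of the members, DUSP5 and FOSL1, known ERK outputs, rose, while FOS and FOSB, which ERK also induces, fell. The part of ERK in these differences was not tested.

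**Figure D3:**
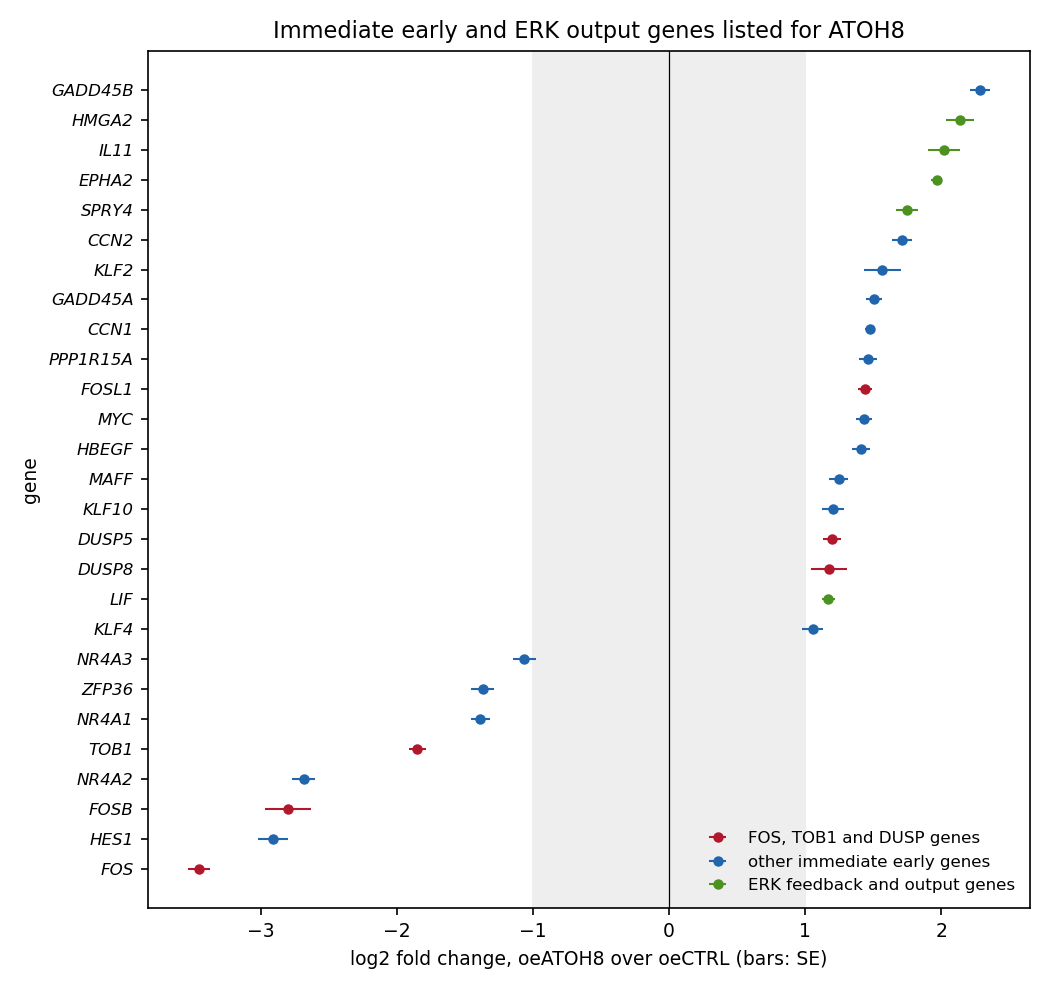
Log2 fold change (oeATOH8 over oeCTRL, with SE from edgeR) of the 6 members and of the listed genes of both lists, ordered by value. The grey band from -1 to 1 holds no listed gene; MYC and MAFF, on both lists, are drawn with the immediate early genes. FOS is lowest at -3.45 and GADD45B highest at 2.28.

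The AP-1 partner list had 2 of 23 genes in the table, both higher (MAFF, and BATF3, 2.22-fold). MAP kinases and their kinases had 1 of 24, MAP2K3 (2.41-fold higher), an activator of p38. EGF receptor ligands had 1 of 12, HBEGF. SRF, its partners and EGR corepressors had 0 of 9. Genes known as AP-1 targets were divided, with 2 of 4 higher and 2 lower out of 28. The urokinase gene PLAU rose 2.10-fold and IL24 rose 6.84-fold, while IL6 fell 4.98-fold. When all annotated genes and loci were counted as tests, 3 of the 4 passed, and scaling by the median of ratios left 1 of the 2 decreases.

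RSL3 treatment listed no FOS or JUN gene and no EGR gene. The members in that table were IER5, IER5L, DUSP6 and DUSP13B. IER5L and DUSP13B rose and IER5 and DUSP6 fell, all 4 passing limma's test at an adjusted p of 0.05 over the listed genes, where 82% of 1732 tested genes passed (43.1% higher and 38.9% lower). The groups did not overlap for any of the 4, as for 86.4% of listed genes. These counts are near the table's background. With all annotated genes (59792) counted as tests, 0 members and 0 listed genes passed with limma, 0 and 0 with edgeR and 0 and 193 with DESeq2 on recovered reads, while at an unadjusted limma p under 0.05 there were 4 members and 1554 listed genes.

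IER5 (chromosome 1, 181088700 to 181092900, GRCh38), an immediate early gene that modulates the heat shock factor HSF1 through the phosphatase PP2A, had normalised counts of 1907, 1694 and 1742 in RSL3, against 2635, 2303 and 2333 in DMSO. Replicate 1 was the highest in both groups. The means were 1781 ± 112 in RSL3 and 2423 ± 183 in DMSO (SD, n = 3 each), a log2 fold change of -0.44 (SE 0.16, limma adjusted p = 0.0424). Within replicate numbers 1, 2 and 3 the log2 ratios were -0.47, -0.44 and -0.42, nearly equal. This was one of the smallest decreases in the table, rank 786 of 803.

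IER5L (chromosome 9, 129175552 to 129178261), a relative of IER5 with a similar amino-terminal part, went the other way. It had 2422, 2963 and 3113 in RSL3, against 2115, 1617 and 1628 in DMSO, normalised counts. RSL3 replicate 1 was the lowest of its group and DMSO replicate 1 the highest of its own, so the gap was narrowest in replicate 1. The means were 2833 ± 363 in RSL3 and 1787 ± 284 in DMSO (SD, n = 3 each). The log2 fold change was 0.67 (SE 0.19, limma adjusted p = 0.0322), and within replicate numbers 1, 2 and 3 it was 0.20, 0.87 and 0.94. Its call was lost when listed genes were scaled by TMM (0.38, adjusted p = 0.114) or by the median of ratios (0.36, adjusted p = 0.108). IER5L reads per IER5 read, which need no scale, were 1.27, 1.75 and 1.79 in RSL3, against 0.803, 0.702 and 0.698 in DMSO, with no overlap (exact two-sided permutation p = 0.1, the smallest possible). Both genes were listed as changed and moved oppositely, so a difference in their ratio was largely selected for. The ratio does not give the direction of IER5L alone. Under those 2 scalings the log2 fold change of IER5 was -0.73 (TMM) and -0.75 (median of ratios).

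DUSP6 (chromosome 12, 89347235 to 89352501), the cytoplasmic ERK phosphatase MKP-3 and a common readout of ERK activity, had 109, 88.2 and 89.2 normalised counts in RSL3, against 151, 203 and 232 in DMSO. All 3 RSL3 libraries were below the lowest DMSO library, again most narrowly in replicate 1. The means were 95.3 ± 11.5 in RSL3 and 195 ± 41.4 in DMSO (SD, n = 3 each), a 2.05-fold fall with a log2 fold change of -1.01 (SE 0.25, limma adjusted p = 0.0255). Within replicate numbers 1, 2 and 3 the log2 ratios were -0.47, -1.20 and -1.38. The readthrough locus POC1B-DUSP6 overlaps it, and reads of the pair were not separated.

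DUSP13B (chromosome 10, 75094432 to 75109221) encodes a phosphatase known mainly from testis. It had 45, 39 and 36 reads in RSL3, against 19, 10 and 3 in DMSO, or 65.2, 36.6 and 33.8 normalised counts in RSL3 and 20.9, 7.64 and 2.62 in DMSO. Replicate 1 was the highest in each group, and DMSO replicate 1 came nearest to the RSL3 libraries. The means were 45.2 ± 17.4 in RSL3 and 10.4 ± 9.44 in DMSO (SD, n = 3 each). The log2 fold change was 2.33 (SE 0.65, limma adjusted p = 0.0311), and 1.64, 2.26 and 3.69 within replicate numbers 1, 2 and 3. Its span holds DUSP13A and overlaps SAMD8, so reads of these genes may be counted in it.

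**Figure D4:**
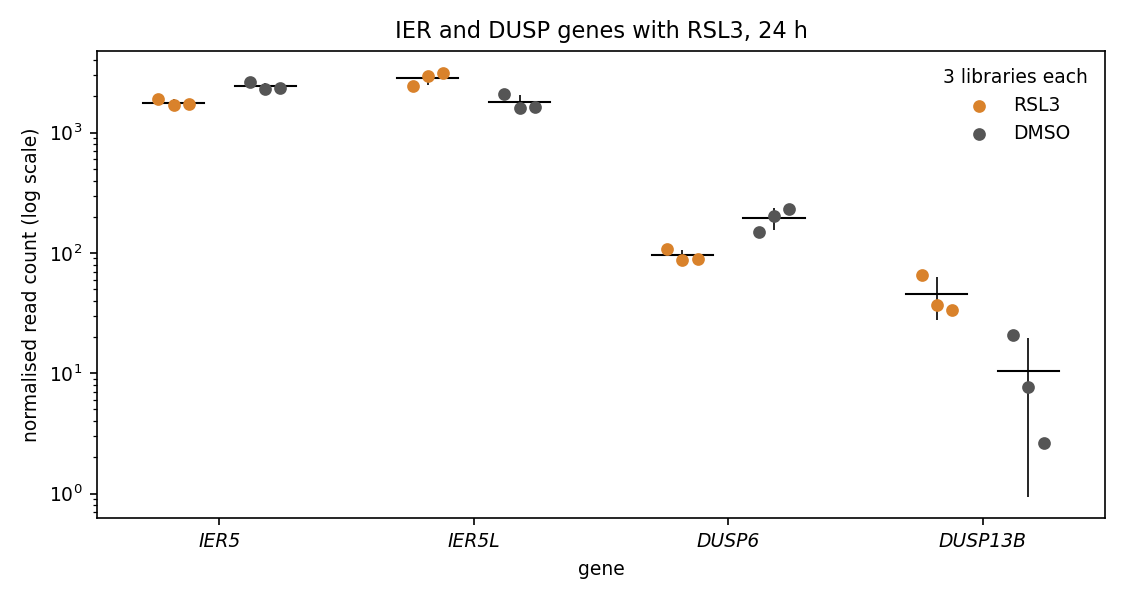
Normalised read counts (log axis) of the 4 members in the RSL3 table, with RSL3 left and DMSO right. Points are libraries in order of replicate number, horizontal bars the mean and vertical bars the SD (n = 3). IER5 and DUSP6 lie lower and IER5L and DUSP13B higher in RSL3.

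With replicate 1 left out of both groups, all 4 members passed, as did 1758 listed genes (919 higher and 839 lower), with log2 fold changes of -0.43 for IER5, 0.90 for IER5L, -1.28 for DUSP6 and 2.69 for DUSP13B, from libraries that are nearly repeats. With replicates 2 and 3 averaged into 1 sample, leaving 2 samples a group, 0 of the 4 passed with limma (1 had an unadjusted p under 0.05), with directions kept, and 3 listed genes passed. Leaving out RSL3 replicate 2 or 3, or DMSO replicate 2 or 3, left 0 members passing with limma. At an unadjusted limma p under 0.05 there were 3 each time. Of all listed genes, 352 passed without RSL3 replicate 2, 317 without RSL3 replicate 3, 6 without DMSO replicate 2 and 8 without DMSO replicate 3. Without RSL3 replicate 1, 3 members and 1000 listed genes passed, and without DMSO replicate 1, 3 and 1500.

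**Figure D5:**
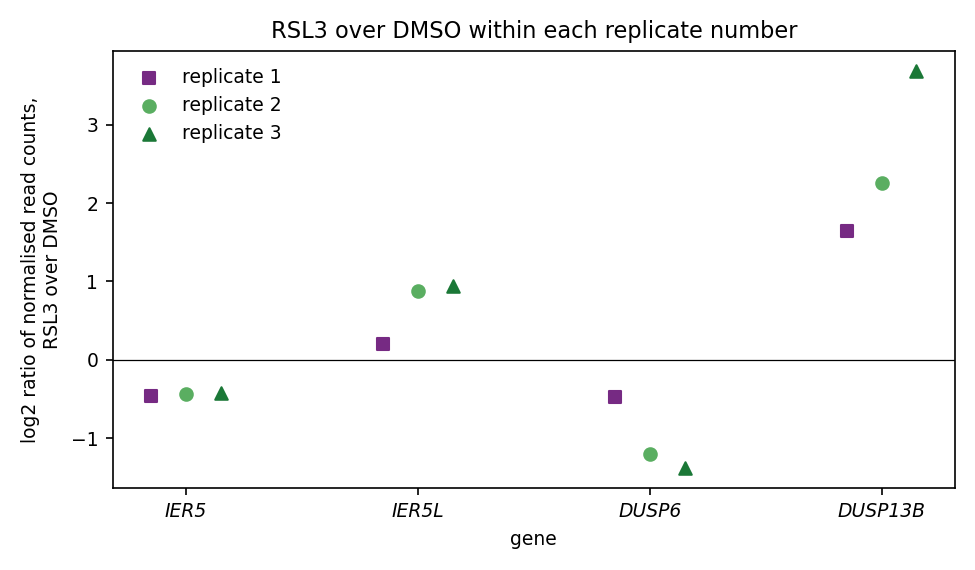
Log2 ratio of normalised counts, RSL3 over DMSO, within each replicate number, for the 4 members. IER5 is nearly the same in all 3, and IER5L, DUSP6 and DUSP13B are nearest to 0 in replicate 1 (0.20, -0.47 and 1.64).

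Around these members, EGF receptor genes were on the lower side with RSL3. The list has 12 genes, and the table held 4, each lower with RSL3, of which 1 passed. AREG, the ligand amphiregulin, fell 2.53-fold, with 500.3 ± 66.6 normalised counts in RSL3 and 1264 ± 355 in DMSO (SD, n = 3 each; limma adjusted p = 0.0145). EREG (2.88-fold lower, adjusted p = 0.0539), TGFA (1.88-fold, 0.0514) and EGFR (1.96-fold, 0.076) did not pass. All 4 genes passed with the replicate number as a block, where 1720 of 1732 tested genes passed. With limma and no block, 0 passed, AREG included, when replicates 2 and 3 were averaged or when DMSO replicate 2 or 3 was left out. Over all listed genes, 3 passed with the averaging, 6 without DMSO replicate 2 and 8 without DMSO replicate 3. The ERK feedback list had 2 of 20, SPRED3 falling 1.71-fold and SPRED1 2.19-fold lower with an adjusted p of 0.1, and 2 passed with the block, but 0 with limma without replicate 2 or 3 of either group or with replicates 2 and 3 averaged. MAPK11 rose 1.74-fold, and MAPK4 fell, with 2.07 ± 1.97 in RSL3 and 10.2 ± 3.57 in DMSO (SD, n = 3 each); both calls were lost without RSL3 replicate 3, without DMSO replicate 2 or 3 and with the averaging, and that of MAPK4 also without RSL3 replicate 2.

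Other immediate early genes had 6 of 33 in the RSL3 table, 5 rising and 1 falling (median log2 fold change 0.83, against 0.51 over all tested genes). ARC rose 2.92-fold, KLF2 2.35-fold and PPP1R15A 1.98-fold, and ZFP36L1, an mRNA decay factor, fell 1.85-fold. The levels of all 5 genes that rose were highest in RSL3 replicate 1, where ARC was at 187 normalised counts, with 92.9 and 84.5 in replicates 2 and 3. Scaling over listed genes left 4 (TMM) or 2 (median of ratios) of the 5. Of the 5 increases 1 passed without RSL3 replicate 2 and 2 without RSL3 replicate 3. Without DMSO replicate 2, without DMSO replicate 3 or with replicates 2 and 3 averaged, 0 of the 5 increases and 0 of the 1 decrease passed with limma.

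AP-1 target genes had 10 of 28 in the RSL3 table, 9 of them tested. Of the 9, 2 were higher and 7 lower with RSL3. Those passing were 1 higher and 6 lower (2 and 7 with the replicate number as a block, where 1720 listed genes passed). The passing counts were 1 and 3 without RSL3 replicate 2, and 1 and 2 without RSL3 replicate 3. They were 0 and 0 with limma without DMSO replicate 2, without DMSO replicate 3 or with replicates 2 and 3 averaged. CXCL8, a chemokine, fell 2.53-fold and IL24 2.74-fold, while IVL, the keratinocyte envelope protein involucrin, rose 3.67-fold. IL24 read 31.2 ± 8.64 in RSL3 and 85.6 ± 27.6 in DMSO (SD, n = 3 each), and 3064 ± 285 in oeATOH8 and 448 ± 16.8 in oeCTRL (SD, n = 3 each), so it fell with RSL3 and rose with ATOH8. The tables were normalised separately, and the difference between the comparisons was not tested. ATF6B (1.47-fold higher), MRTFA (1.53-fold higher) and FHL2 (1.52-fold lower) were the listed genes of the remaining lists, and the calls of ATF6B and MRTFA were lost under both scalings over listed genes. All 3 calls were lost without replicate 2 or 3 of either group and with replicates 2 and 3 averaged, and those of ATF6B and MRTFA also without RSL3 replicate 1.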

How the data were processed

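Members and gene lists were chosen with earlier results of these data known. Per the submitters' processing notes, fastp, HISAT2, StringTie and DESeq2 were used with the build hg38 (GRCh38), with no versions or roles. Neither table as deposited gives a fold change or p-value. The deposited RSL3 table holds a normalised signal per gene, given by position and strand. All values (100%) were whole multiples of 1 step per library within 0.001, as counts divided by a size factor are, so whole reads were recovered. The other deposited table gives unnormalised counts of reads under headers NC and OE, read as oeCTRL and oeATOH8.

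RSL3 rows were named by the RefSeq gene on the same strand whose overlap was at least 0.5 of the joint span (1045 equal, 697 overlapping, 33 by GENCODE, 35 unnamed). Symbols were found for 1146 of 1152 Ensembl identifiers. The authors' scaling was kept for RSL3, and limma 3.58.1 (trended variance) was run on log2(value + 1), so folds of low genes are understated on that scale; 78 genes were left out by filterByExpr of edgeR, at a minimum count of 10 and total of 15. ATOH8 counts were tested with edgeR 4.0.16 (quasi-likelihood). Libraries were scaled within groups by the median ratio, and groups so that the gap without listed genes (-0.97 to 1.03, log2) was centred on 0, which assumes symmetric fold limits. SE for edgeR is the log2 fold change over the square root of F. Folds are ratios of group means. Two-sided p-values were adjusted by Benjamini-Hochberg over the genes of a table, with a threshold of 0.05. Alternatives, including DESeq2 1.42.0, ran under R 4.3.3. The code was tested on simulated data. Named genes were all members, the 3 nearest profiles to FOS and TOB1, and at most 4 genes a list and comparison by p; some genes of the lists are not reported here.

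Over 1391 genes of the RSL3 table, libraries with the same replicate number deviated together from their group means. The r values were 0.68, 0.61 and 0.61, each over 0.1. The replicate number was fitted there as a block in an alternative, while the limma p-values given for the members are without a block. Replicates 2 and 3 also correlated across numbers at 0.63 and 0.58, so these values do not show separate pairs. With the block, all 4 RSL3 members kept their calls, where 1720 of 1732 tested genes passed.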

Additional observations from a re-analysis of the deposited data

How the results depend on the processing

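For the 6 ATOH8 members, direction and call were kept under all 14 alternatives, with 6 passing each time and 1007 (median of ratios; 589 higher, 418 lower) to 1424 listed genes passing (589 higher, 835 lower). The 4 RSL3 members kept their direction under all 18 alternatives, and IER5L lost its call in 9, IER5 and DUSP13B in 8 and DUSP6 in 7. For RSL3, 1421 listed genes passed, 747 higher and 674 lower. With listed genes scaled by TMM the count was 926 (278 higher, 648 lower) and by the median of ratios 898 (259 higher, 639 lower). The median log2 fold change of tested genes was 0.51 as reported, 0.22 with TMM and 0.20 with the median of ratios, and in the ATOH8 table -1.10 as reported, -0.80 (TMM), -0.19 (median of ratios) and -1.56 (totals); they take genes listed as changed to be unchanged on balance. Counting every annotated gene as a test, limma passed 0 listed genes and 0 members (1554 and 4 at an unadjusted p under 0.05; edgeR 0 and 0, DESeq2 193 and 0), and with the replicate block as well, 2 and 0 (1720 and 4 unadjusted). The replicate block alone gave 1720 listed genes and 4 members. With replicates 2 and 3 averaged as 1 sample, 3 listed genes and 0 members passed (540 and 1 unadjusted), with fewer samples by construction. Leaving out 1 library gave 6 to 1500 listed genes and 0 to 3 members for RSL3, fewest without DMSO replicate 2. The averaging, the use of replicates 2 and 3 alone, and the block with all annotated genes were chosen after seeing the data.

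In the ATOH8 table equal replicate numbers correlated at 0.041, 0.053 and 0.074, under 0.1, so the samples share only a number, although each correlated best with its own. The replicate block left 1424 listed genes and 6 members passing. Low read numbers limit DUSP13B, with 3 to 45 reads a library.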
